A study of Homo sapiens with 12 samples.

Results

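DNA polymerases alpha, delta and epsilon, with primase, the flap endonuclease FEN1 and the DNA ligase LIG1, were followed as transcripts in a pancreatic cancer cell line given gemcitabine, a high level of glutamine, or both. The genes were chosen by symbol as POLA1, POLA2, PRIM1, PRIM2, POLD1, POLD3, POLE, POLE2, FEN1 and LIG1. They were chosen with earlier results of these data known, and POLD2, POLD4, POLE3 and POLE4 of the same polymerases are not among them. Of those 4, 1 was called higher with drug at 2 mM glutamine, where 17.5% of all genes tested were. At 40 mM 1 was called higher and 1 lower, against 14.1% and 16.2% of all genes tested. Counts of the 10 are therefore not counts over all subunits. All 10 were among the 15090 genes of the deposited expression table, and all 10 were among the 12789 genes that reached 1 read per 1000000 (RPM) in at least 3 of the 12 libraries and were tested. Every library came from MIA PaCa-2, an established human pancreatic cancer cell line labelled as wild type, kept for 48 h in RPMI 1640 medium that lacked glutamine until L-glutamine was added back. The 4 groups of 3 biological replicates were 40 mM L-glutamine with 0.5 µM gemcitabine, 2 mM L-glutamine with 0.5 µM gemcitabine, 40 mM L-glutamine without the drug, and 2 mM L-glutamine without the drug. A single cell line was used, and the labels do not say whether the replicates were grown on separate days, so the p-values measure the spread between these libraries.

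Replication of nuclear DNA starts with the polymerase alpha and primase complex, whose primase subunits PRIM1 and PRIM2 lay down a short RNA that the catalytic subunit POLA1 extends with DNA and that the regulatory subunit POLA2 helps to place. Polymerase epsilon then copies the leading strand and polymerase delta the lagging strand, where FEN1 trims the displaced primer of each Okazaki fragment and LIG1 seals the remaining nick. Transcripts of these enzymes are known to peak around the start of S phase, partly through E2F factors, and gemcitabine is a deoxycytidine analogue that stops chain extension and inhibits ribonucleotide reductase.

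The 12 libraries held between 21723094 and 32811746 reads in listed genes, and the 10 genes had between 461 reads (POLE2) and 6751 reads (POLE) in a library. The Poisson error of such counts is at most 4.66% of the value. Of the markers of the labelled line, the epithelial keratin KRT8 averaged 1699 RPM at 40 mM with drug and 2318 RPM at 2 mM with drug, against 1362 RPM at 40 mM without and 1682 RPM at 2 mM without. KRT18 was also higher with drug (1037 and 1558 RPM with drug at 40 and 2 mM, against 859 and 1146 RPM without), and KRT19 was lower (202 and 277 RPM with drug at 40 and 2 mM, against 231 and 286 RPM without). The part of these differences in the results was not tested. The mesenchymal filament VIM averaged between 2976 RPM (40 mM with drug) and 3437 RPM (2 mM without). Another mesenchymal marker, ZEB1, averaged between 38.0 RPM (2 mM with drug) and 44.5 RPM (40 mM without), and CDH2 was not listed. Of the fibroblast markers, COL1A2 averaged between 606 RPM (2 mM with drug) and 885 RPM (40 mM without). COL1A1 averaged at most 1.45 RPM (2 mM with drug), and PDGFRB and DCN were not listed. Other epithelial markers, EPCAM and CDH1, and the leukocyte marker PTPRC were not listed in the table. In bulk RNA, a larger share of cells in S phase and more transcript per cell cannot be told apart.

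Gemcitabine raised all 10 transcripts at both glutamine levels. At 2 mM glutamine the rises ran between 0.21 (POLD1) and 0.70 (POLA2) on the log2 scale, with a median of 0.34, and 10 of 10 passed the test (limma, Benjamini-Hochberg adjusted p below 0.05 over all genes tested), where 17.5% of all genes tested were called higher and 17.1% lower. Each of the 10 also had all 3 libraries with drug above all 3 without, which held for 23.2% of all genes (22.8% the other way). At 40 mM glutamine 10 of 10 were again called higher, against 14.1% of all genes called higher and 16.2% lower, with changes between 0.10 (POLE) and 0.41 (POLA2) and a median of 0.27. There the libraries of 9 of the 10 did not overlap (19.2% of all genes in that direction and 21.4% in the other). The median over all genes tested was −0.0011 at 2 mM and −0.0054 at 40 mM.

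**Figure D1:**
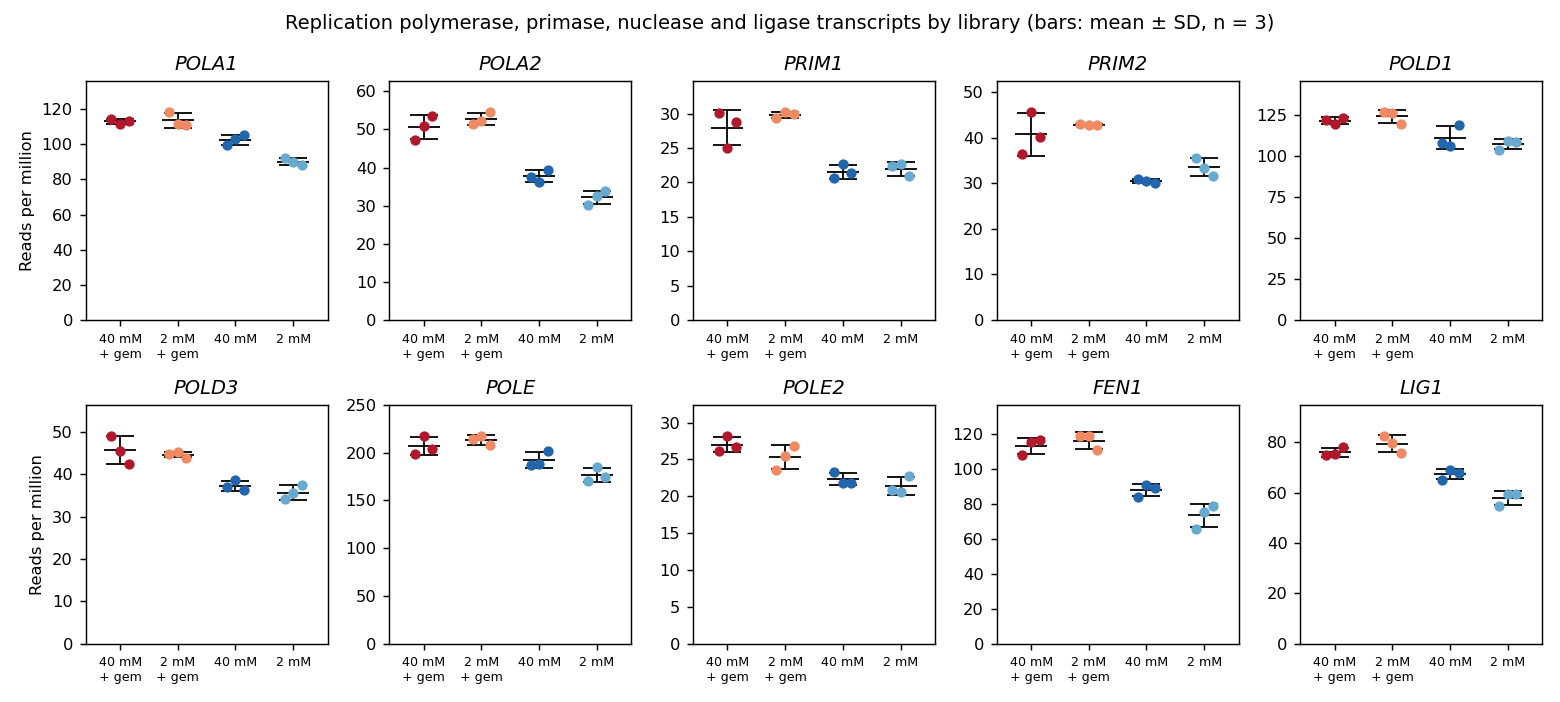
Level of each transcript in reads per 1000000 in each of the 12 libraries (points), with the mean and SD of each group of 3 (bars), for 40 mM glutamine with gemcitabine, 2 mM with gemcitabine, 40 mM without and 2 mM without. The libraries with drug stand above those without, except for POLE at 40 mM, where the lowest library with drug (199 RPM) lies below the highest without (202 RPM).

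All 10 genes passed the test with the drug and 5 with glutamine alone, so the sequences just before the start sites of those 5 (POLA1, POLA2, POLE, FEN1 and LIG1) are shown. They come from RefSeq on GRCh38.p14, which held promoters for 9 of the 10 genes and none for POLD3. Each run gives the 150 bases before the start site on the gene's own strand, and lies at chrX:24693768-24693917 (plus strand) for POLA1, chr11:65261812-65261961 (plus) for POLA2, chr12:132687343-132687492 (minus) for POLE, chr11:61792761-61792910 (plus) for FEN1 and chr19:48170345-48170494 (minus) for LIG1. Capitals mark an E2F-type match, TTTNNCGC on either strand, except in FEN1, where they mark the E-box CACGTG.
POLA1: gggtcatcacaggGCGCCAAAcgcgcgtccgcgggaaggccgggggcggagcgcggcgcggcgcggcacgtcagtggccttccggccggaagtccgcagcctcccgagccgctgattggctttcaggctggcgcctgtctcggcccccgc
POLA2: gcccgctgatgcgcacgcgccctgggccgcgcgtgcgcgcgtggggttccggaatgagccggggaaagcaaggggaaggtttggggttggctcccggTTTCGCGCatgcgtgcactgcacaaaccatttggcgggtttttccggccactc
POLE: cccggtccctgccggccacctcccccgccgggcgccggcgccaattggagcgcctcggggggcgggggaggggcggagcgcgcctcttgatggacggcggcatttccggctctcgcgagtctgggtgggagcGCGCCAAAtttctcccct
FEN1: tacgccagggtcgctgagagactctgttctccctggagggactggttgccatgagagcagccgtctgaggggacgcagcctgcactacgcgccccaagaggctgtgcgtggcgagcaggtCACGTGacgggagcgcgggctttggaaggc
LIG1: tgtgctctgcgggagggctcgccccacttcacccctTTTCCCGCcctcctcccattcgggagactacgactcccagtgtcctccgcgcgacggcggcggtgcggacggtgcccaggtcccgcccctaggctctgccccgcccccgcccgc

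In windows of 300 bases around the start site, TTTNNCGC on either strand occurred in 6.89% of 35116 promoters. Among the 11 promoters held for the 9 genes, 5 had a match, those of POLE2 and the 4 genes marked above. In POLE2 a match began at both −81 and −5 from the start site. In the others the match began at −137 (POLA1), −53 (POLA2), −18 (POLE) and −114 (LIG1). CACGTG occurred in 7.26% of promoters and, among these genes, in FEN1 alone, at −30. The CCAAT box occurred in 34.6% of promoters and in POLA1, POLE and PRIM1, while the NRF1 type, a pair of GCGC with 2 free bases between, occurred in 8.32% and in POLA1, POLA2, POLE and PRIM1. TTTGAA, the CHR element of late cell cycle genes, occurred in 15.2% of promoters and in none of the 9 genes. In POLA2 and POLE the printed NRF1-type matches do not overlap the E2F-type match. The motifs were chosen with the sequences in view, and a match describes the letters only.

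Of the polymerase alpha and primase genes, POLA2 had the largest response. POLA2 had 47.2, 50.9 and 53.5 RPM at 40 mM glutamine with drug and 51.6, 52.3 and 54.5 RPM at 2 mM with drug, against 37.7, 36.2 and 39.4 RPM at 40 mM without drug and 30.3, 32.4 and 33.8 RPM at 2 mM without drug. The 2 drug groups overlapped each other and stood clear of both groups without drug, which were also apart. Gemcitabine raised it by 0.70 ± 0.057 (SE) on the log2 scale at 2 mM (adjusted p = 8.04e-12) and by 0.41 ± 0.057 at 40 mM (adjusted p = 6.32e-07).

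POLA1, the catalytic subunit of the same complex, moved less. It had 114, 111 and 113 RPM at 40 mM with drug and 118, 111 and 111 RPM at 2 mM with drug, against 99.4, 103 and 105 RPM at 40 mM without drug and 92.2, 89.9 and 88.0 RPM at 2 mM without drug. The order of the groups was that of POLA2, with the drug groups overlapping on top and the other 2 apart. The drug changes were 0.33 ± 0.039 at 2 mM (adjusted p = 2.46e-08) and 0.14 ± 0.039 at 40 mM (adjusted p = 0.00557).

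The primase subunits followed the drug and showed no rise with glutamine. PRIM1, which polymerises the RNA primer, had 30.0, 25.1 and 28.7 RPM at 40 mM with drug and 29.3, 30.2 and 29.9 RPM at 2 mM with drug, against 20.6, 22.7 and 21.3 RPM at 40 mM without drug and 22.4, 22.7 and 20.9 RPM at 2 mM without drug. All 6 libraries with drug were above all 6 without, and the 2 groups without drug overlapped. PRIM1 rose with drug by 0.42 ± 0.071 at 2 mM (adjusted p = 1.46e-05) and 0.36 ± 0.071 at 40 mM (adjusted p = 0.000162).

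PRIM2, the large primase subunit, had 36.4, 45.6 and 40.2 RPM at 40 mM with drug and 42.9, 42.8 and 42.8 RPM at 2 mM with drug, against 31.0, 30.5 and 30.1 RPM at 40 mM without drug and 35.5, 33.5 and 31.5 RPM at 2 mM without drug. Its spread was the widest of the 10 genes at 40 mM with drug (coefficient of variation 11.4%) and the narrowest at 2 mM with drug (0.179%). The 0.179% lies below the counting error of the 3 libraries, which had 1122, 921 and 1387 reads. So narrow a value says little about how the gene varies. Replicate 1 was the low library for PRIM2 at 40 mM with drug and the high one for PRIM1, and replicate 2 the reverse. The drug raised PRIM2 by 0.35 ± 0.064 at 2 mM (adjusted p = 6.43e-05) and by 0.40 ± 0.064 at 40 mM (adjusted p = 1.01e-05). Reads of PRIM2 and FEN1 may be shared with the pseudogenes PRIM2BP and FEN1P1, and the labels do not say how such reads were assigned.

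Of the polymerase delta genes, the chosen POLD1 and POLD3 rose with gemcitabine, while POLD2 and POLD4, described below, were not called higher. POLD1, the catalytic and proofreading subunit, had 122, 119 and 123 RPM at 40 mM with drug and 126, 126 and 119 RPM at 2 mM with drug, against 108, 106 and 119 RPM at 40 mM without drug and 103, 109 and 109 RPM at 2 mM without drug. At 40 mM the gap was narrow, 119.04 RPM in the lowest library with drug against 118.74 RPM in the highest without. The change was 0.21 ± 0.041 at 2 mM (adjusted p = 0.000138) and 0.13 ± 0.041 at 40 mM (adjusted p = 0.0138). The 40 mM call ended without replicate 1 or 2 at 40 mM without drug (adjusted p = 0.0659 and 0.0874) and without replicate 3 at 40 mM with drug (adjusted p = 0.0529).

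POLD3, an accessory subunit that binds the sliding clamp, had 49.1, 45.6 and 42.4 RPM at 40 mM with drug and 44.8, 45.3 and 44.0 RPM at 2 mM with drug, against 37.0, 38.7 and 36.4 RPM at 40 mM without drug and 34.1, 35.6 and 37.5 RPM at 2 mM without drug. All 6 drug libraries were above all 6 others. The rise was 0.32 ± 0.057 at 2 mM (adjusted p = 4.61e-05) and 0.28 ± 0.057 at 40 mM (adjusted p = 0.000223).

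POLE, the catalytic subunit of polymerase epsilon, was the most abundant of the 10 in RPM. It had 199, 217 and 204 RPM at 40 mM with drug and 214, 218 and 208 RPM at 2 mM with drug, against 187, 188 and 202 RPM at 40 mM without drug and 170.2, 185 and 175 RPM at 2 mM without drug. The 2 mM groups were apart, and the 40 mM groups overlapped by 1 library. Its change of 0.27 ± 0.037 at 2 mM (adjusted p = 6.2e-07) compared with 0.10 ± 0.037 at 40 mM (adjusted p = 0.0348). The call at 40 mM ended when replicate 1 or 2 without drug or replicate 2 with drug was left out (adjusted p = 0.129, 0.112 and 0.248).

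POLE2, the second subunit of polymerase epsilon, had 26.1, 28.2 and 26.7 RPM at 40 mM with drug and 23.6, 25.4 and 26.9 RPM at 2 mM with drug, against 23.2, 21.9 and 21.8 RPM at 40 mM without drug and 20.9, 20.6 and 22.8 RPM at 2 mM without drug. At each glutamine level the libraries with drug were above those without. The drug changes were 0.23 ± 0.070 at 2 mM (adjusted p = 0.0107) and 0.27 ± 0.070 at 40 mM (adjusted p = 0.00364), and the 2 mM call ended without replicate 3 of the drug group (0.19, adjusted p = 0.0775).

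Of the lagging strand enzymes, FEN1 had the larger drug change at both glutamine levels. It had 108, 115 and 117 RPM at 40 mM with drug and 119, 119 and 111 RPM at 2 mM with drug, against 84.1, 90.7 and 89.3 RPM at 40 mM without drug and 65.9, 75.5 and 79.0 RPM at 2 mM without drug. The drug groups overlapped on top, followed by the 40 mM and then the 2 mM group without drug, with no overlap at either step. Gemcitabine raised it by 0.66 ± 0.050 at 2 mM (adjusted p = 1.28e-12) and 0.36 ± 0.050 at 40 mM (adjusted p = 6.13e-07). Exons of FEN1 overlap TMEM258 on the opposite strand and FADS2 on the same strand in the annotation, and the labels do not say whether counting used strand.

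LIG1 had 74.8, 75.1 and 78.0 RPM at 40 mM with drug and 82.5, 79.7 and 75.8 RPM at 2 mM with drug, against 65.0, 69.0 and 67.8 RPM at 40 mM without drug and 54.8, 59.6 and 59.2 RPM at 2 mM without drug. The groups fell in the same order as for FEN1. The drug changes were 0.45 ± 0.046 at 2 mM (adjusted p = 1.42e-09) and 0.17 ± 0.046 at 40 mM (adjusted p = 0.00387). An antisense gene listed as AC011466.3 overlaps exons of LIG1, and without strand reads of the pair cannot be told apart. Same-strand protein-coding genes also overlap exons of POLA2 (AP000944.2, 17 exon pairs), POLD1 (AC020909.1, 20 pairs) and PRIM1 (AC117378.1, 4 pairs), and HSD17B6 overlaps PRIM1 on the opposite strand, so levels of these genes are uncertain to that extent.

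Glutamine at 40 mM without the drug raised 5 of the 10, POLA1, POLA2, POLE, FEN1 and LIG1, and lowered none, where 8.41% of all genes were called higher and 9.12% lower. The largest change was that of FEN1, 0.26 ± 0.050 (adjusted p = 0.000251), with a mean of 88.1 ± 3.49 RPM with 40 mM against 73.5 ± 6.78 RPM with 2 mM (SD, n = 3 each). POLA2 rose by 0.22 ± 0.057 (adjusted p = 0.00505), LIG1 by 0.22 ± 0.046 (adjusted p = 0.000971) and POLA1 by 0.19 ± 0.039 (adjusted p = 0.000786). POLE rose by 0.12 ± 0.037 (adjusted p = 0.021), and that call ended without replicate 1 or 3 at 2 mM or replicate 3 at 40 mM (adjusted p = 0.119, 0.0612 and 0.161). These 5 also had separate libraries, as did 15.4% of all genes in that direction.

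The remaining 5 genes did not pass the test for glutamine alone. POLD1, POLD3 and POLE2 had changes of 0.05, 0.06 and 0.06, with overlapping libraries, and PRIM1 had −0.03. PRIM2 averaged 30.6 ± 0.462 RPM with 40 mM, against 33.5 ± 1.98 RPM with 2 mM (SD, n = 3 each), with all 3 libraries at 40 mM below all 3 at 2 mM. Its change was −0.13 ± 0.064 (adjusted p = 0.177, 95% interval −0.26 to 0.00), so the call was not made. Lower and separate libraries were found for 15.8% of all genes. The members' median was 0.09 and that of all genes 0.0016.

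In cells that had gemcitabine, 40 mM against 2 mM glutamine changed none of the 10 genes by limma, at the adjusted threshold or at an unadjusted p below 0.05, or by limma-voom on the recovered reads at the adjusted threshold. Among all genes 21.6% were called, 8.62% higher and 13.0% lower. The changes ran between −0.09 (PRIM1) and 0.09 (POLE2) with a median of −0.04, against −0.0015 for all genes, and the libraries of the 2 groups overlapped for every one of the 10, while for 17.0% of all genes they stood apart and higher and for 20.5% apart and lower. The 95% intervals lay within −0.24 (the lower bound of PRIM1) and 0.23 (the upper bound of POLE2), so changes larger than these bounds fall outside all 10 intervals. Where libraries were scaled by their total reads alone, the median of the 10 was 0.01, and POLA1, POLD1, POLE and FEN1 changed sign without passing the test. The scaling factors in the deposited table were 1.026 or more for the 3 libraries given both treatments and 1.002 or less for the other 9.

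**Figure D2:**
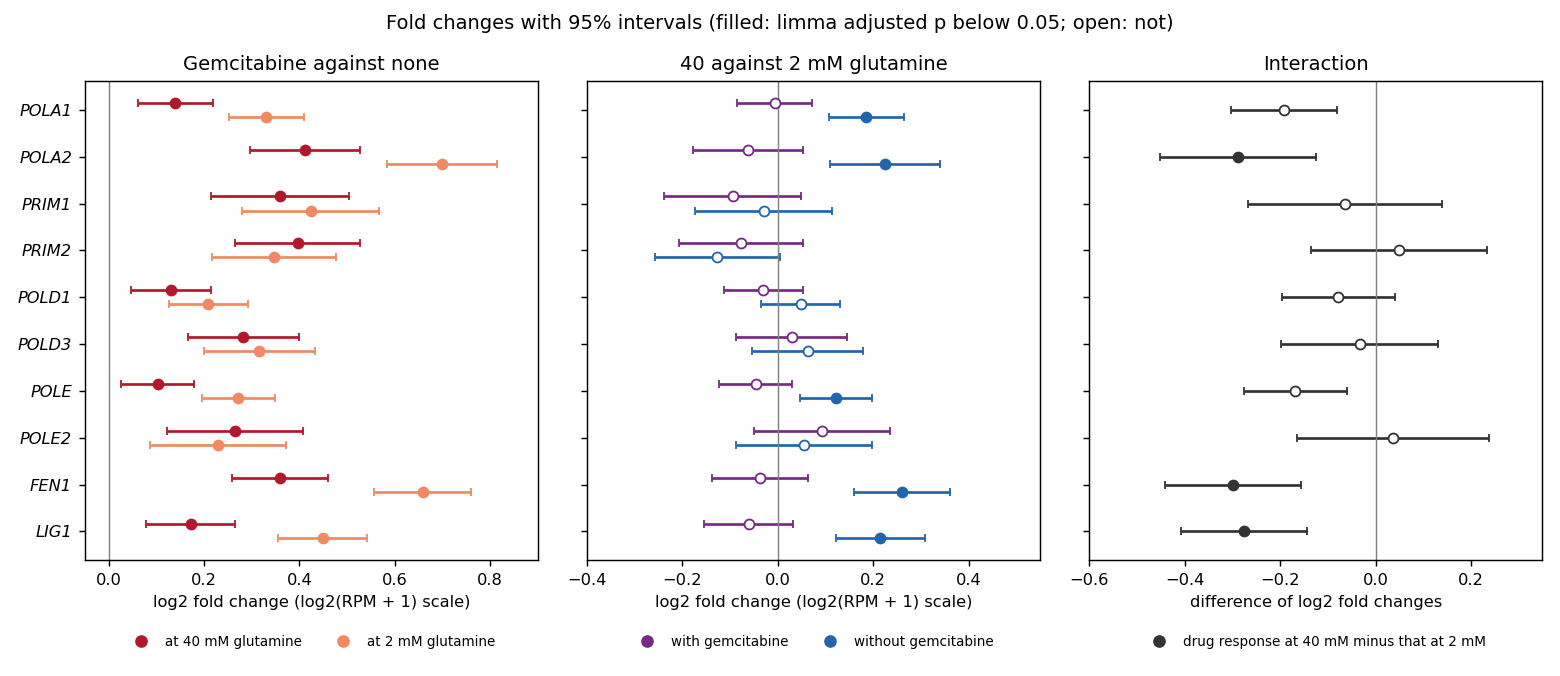
Log2 fold changes with 95% intervals (bars) for gemcitabine against none (left), 40 mM against 2 mM glutamine (middle) and the interaction, the drug response with 40 mM less the response with 2 mM (right), with filled points where the limma adjusted p was below 0.05. All 20 points on the left are filled and above 0, while the middle panel has 5 filled points, all without drug.

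The drug response itself was smaller at 40 mM than at 2 mM glutamine for POLA2, FEN1 and LIG1, by the test of the difference. The interaction, the response with 40 mM less the response with 2 mM, was −0.30 ± 0.070 for FEN1 (adjusted p = 0.0155), −0.28 ± 0.065 for LIG1 (adjusted p = 0.0154) and −0.29 ± 0.080 for POLA2 (adjusted p = 0.0495). Among all genes, 2.20% were called in this test, 1.47% lower and 0.727% higher. At an unadjusted p below 0.05, 5 of the 10 were lower and 0 higher, against 8.97% and 6.22% of all genes, the other two being POLA1 (−0.19 ± 0.055, adjusted p = 0.0558) and POLE (−0.17 ± 0.053, adjusted p = 0.0876). The PRIM1, PRIM2, POLD1, POLD3 and POLE2 values lay between −0.08 (POLD1) and 0.05 (PRIM2). Their 95% intervals reached from −0.27 (PRIM1) to 0.24 (POLE2). This test shares its 6 libraries without drug with the comparison of glutamine alone. The 5 genes lower at the unadjusted threshold were the 5 called higher with glutamine alone. The interaction equals the glutamine change with drug less that without drug. Those changes were −0.04 and 0.26 for FEN1, and −0.06 and 0.22 for both LIG1 and POLA2. The smaller response is therefore not a result separate from the glutamine comparisons.

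These calls of a smaller response rested on single libraries. The count of 3 became 0 without replicate 1 at 2 mM without drug and 0 without replicate 1 at 2 mM with drug. It was 1 without replicate 2 at 2 mM with drug, replicate 3 at 40 mM without drug or replicate 1 at 40 mM with drug. POLA2 was called in 3 of the 12 fits that left out a library, FEN1 in 7 and LIG1 in 10. The direction was lower for all 3 genes in every one of those fits, with FEN1 between −0.35 and −0.22, LIG1 between −0.31 and −0.24 and POLA2 between −0.33 and −0.24.

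Both treatments together, against neither, raised 10 of 10 genes, where 18.7% of all genes were called higher and 21.2% lower. All 10 had separate libraries, against 23.3% of all genes apart and higher and 25.0% apart and lower. POLA2 and FEN1 rose the most, by 0.64 ± 0.057 (adjusted p = 4.78e-11) and 0.62 ± 0.050 (adjusted p = 3.58e-12), and POLD1 the least, by 0.18 ± 0.041 (adjusted p = 0.000655). The median of 0.33 stood beside −0.0022 for all genes. The comparison shares its untreated libraries with the drug comparison at 2 mM, where the median was 0.34.

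Partners did not all respond alike, as the ratio of their reads in the same library shows without any scaling. The 5 pairs cover all 10 genes by complex or by step and were set up after the values had been seen. Each was tested for drug against none within glutamine levels by an exact two-sided permutation test with 400 arrangements and a smallest possible p of 0.005. The POLA2 to POLA1 ratio was 0.447 ± 0.0305 at 40 mM with drug and 0.466 ± 0.0275 at 2 mM with drug, against 0.368 ± 0.0148 at 40 mM without drug and 0.358 ± 0.0274 at 2 mM without drug (SD, n = 3 each). It was higher with drug by 0.33 on the log2 scale (exact p = 0.005, adjusted over the 5 pairs 0.0125), and all 6 libraries with drug were above all 6 without.

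The FEN1 to LIG1 ratio was 1.49 ± 0.0456 at 40 mM with drug and 1.47 ± 0.0261 at 2 mM with drug, against 1.31 ± 0.0127 at 40 mM without drug and 1.27 ± 0.0654 at 2 mM without drug (SD, n = 3 each). The difference was 0.20 (exact permutation p = 0.005, adjusted 0.0125). Again no library with drug fell among those without. The POLD3 to POLD1 ratio averaged 0.377 and 0.361 with drug at 40 and 2 mM, against 0.339 and 0.334 without, a difference of 0.13 (exact permutation p = 0.02, adjusted 0.0333). Its libraries overlapped, and it passed in 4 of the 12 repeats that left out a library.

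For polymerase epsilon and primase the ratio did not pass. POLE2 to POLE averaged 0.131 at 40 mM with drug and 0.119 at 2 mM with drug, against 0.116 at 40 mM without and 0.122 at 2 mM without (difference 0.07, exact permutation p = 0.305, adjusted 0.381). PRIM1 to PRIM2 was 0.825, 0.549 and 0.716 in the 3 libraries at 40 mM with drug, a wider range than in any other group. Its groups averaged 0.697 at 40 mM with drug and 0.696 at 2 mM with drug, against 0.704 and 0.657 without (difference 0.03, exact permutation p = 0.825, adjusted 0.825).

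**Figure D3:**
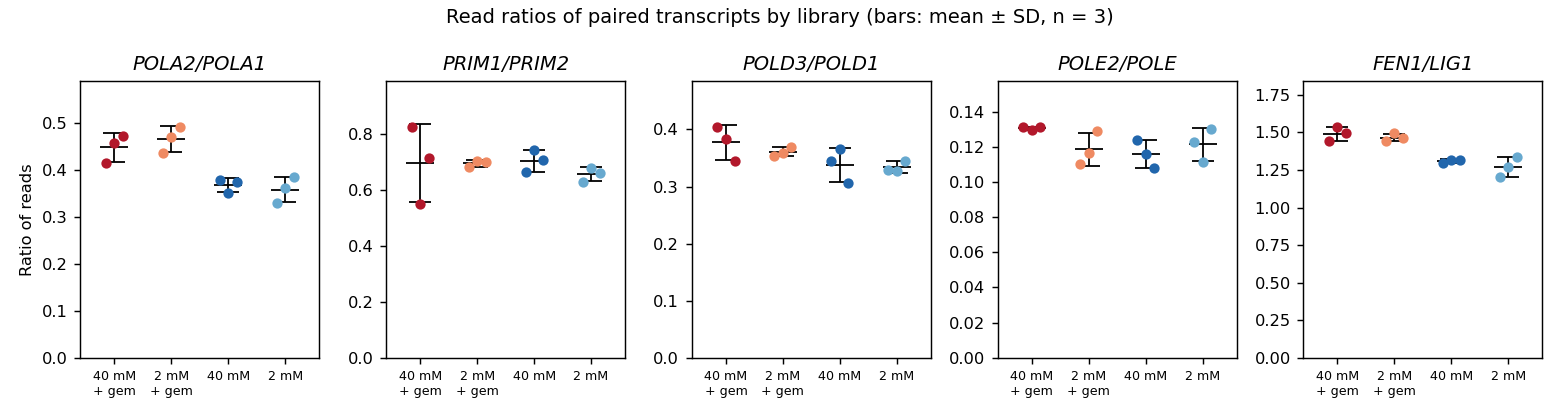
Ratio of reads of paired transcripts in each library (points) with the mean and SD of each group of 3 (bars), for 40 mM glutamine with gemcitabine, 2 mM with gemcitabine, 40 mM without and 2 mM without. POLA2/POLA1 and FEN1/LIG1 are higher in every library with drug than in every library without, while POLE2/POLE and PRIM1/PRIM2 overlap.

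Per kilobase of the longest coding transcript, levels could be set against each other across genes. At 40 mM with drug FEN1 was highest, at 49.3 RPM per kilobase, with POLD1 at 34.5 and POLE at 26.4 next. POLD3 was lowest at 11.96 and POLA2 had 13.5, against 20.6 for its partner POLA1. At 2 mM without drug FEN1 had 32.0 RPM per kilobase, POLD1 30.4 and POLE 22.5, and POLA2, at 8.59, was lowest. The transcript used by the cells was not measured, so these levels depend on the annotated length. They also take reads to come from the whole transcript, which was not checked.

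The remaining subunits of the same polymerases did not all move. POLE3, a histone-fold subunit of polymerase epsilon, rose with drug by 0.25 ± 0.037 at 2 mM (adjusted p = 1.43e-06) and 0.15 ± 0.037 at 40 mM (adjusted p = 0.00165), and its partner POLE4 had 0.27 ± 0.126 and −0.04 ± 0.126 (adjusted p = 0.0969 and 0.868). POLE4 was called higher with glutamine alone, 0.38 ± 0.126 (adjusted p = 0.0332), at 8.49 ± 0.702 RPM with 40 mM against 6.37 ± 1.44 RPM with 2 mM (SD, n = 3 each). That call ended in 4 of the 12 fits without a library, down to 0.26 (adjusted p = 0.206) without replicate 3 at 2 mM without drug.

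POLD2, the second subunit of polymerase delta, did not rise with the drug. It had 219, 237 and 232 RPM at 40 mM with drug and 266, 279 and 269 RPM at 2 mM with drug, against 254, 246 and 251 RPM at 40 mM without drug and 265, 289 and 269 RPM at 2 mM without drug. The libraries at 40 mM with drug were below those of all the other groups. POLD2 fell with 40 mM glutamine by 0.24 on the log2 scale in cells with drug (SE 0.035, adjusted p = 3.56e-06) and by 0.13 without drug (adjusted p = 0.00686), a call lost on leaving out replicate 2 at 2 mM without drug (−0.09, adjusted p = 0.0828). With drug at 40 mM its change was −0.13 (adjusted p = 0.00532), or −0.08 (adjusted p = 0.061) under scaling by total reads and −0.09 (adjusted p = 0.0633) without replicate 1 at 40 mM with drug. At 2 mM with drug its change was −0.01 (adjusted p = 0.783). POLD4, the smallest subunit of polymerase delta, was called in no comparison, with values of 0.00 and 0.16 for the drug at 2 and 40 mM. Its value at 40 mM was called under scaling by total reads (0.20, adjusted p = 0.0373) and without replicate 1 at 40 mM without drug (0.22, adjusted p = 0.0329), and its value for glutamine alone, −0.16, was called without that same library (−0.23, adjusted p = 0.0427).

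The sliding clamp, its loader and the single-strand binding protein RPA have 9 genes in the list. Of these, 9 rose and 0 fell with drug at 2 mM (9 and 0 at an unadjusted p below 0.05, and 9 and 0 by limma-voom), with a list median of 0.40. RPA1 had the smallest rise, 0.09 (adjusted p = 0.0247), a call lost on leaving out replicate 1 or 3 at 2 mM without drug or any replicate at 2 mM with drug (adjusted p between 0.0504 and 0.156). At 40 mM 7 rose and 0 fell by either tool, with a median of 0.24, and RPA1 and RPA2 had 0.02 and 0.10 (adjusted p = 0.732 and 0.131). Of all genes, 17.5% were called higher with drug at 2 mM and 17.1% lower, against 14.1% higher and 16.2% lower at 40 mM. Under scaling by total reads RPA2 was called there too (0.14, adjusted p = 0.0298), which made the count 8. PCNA, the clamp, averaged 145 ± 2.17 RPM at 40 mM with drug and 159.6 ± 3.92 RPM at 2 mM with drug, against 115 ± 3.24 RPM at 40 mM without drug and 99.6 ± 1.26 RPM at 2 mM without drug (SD, n = 3 each). It rose with drug by 0.67 ± 0.036 at 2 mM (adjusted p = 1.7e-16) and by 0.33 ± 0.036 at 40 mM (adjusted p = 5e-09). The difference of its responses was −0.34 ± 0.050 (adjusted p = 0.000119).

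The loader subunits RFC1, RFC2, RFC3, RFC4 and RFC5 rose with drug by 0.22, 0.44, 0.40, 0.45 and 0.41 at 2 mM and by 0.16, 0.26, 0.25, 0.41 and 0.22 at 40 mM. The RFC1 call at 40 mM ended without replicate 2 of the drug group (0.12, adjusted p = 0.0536). With glutamine alone 5 of the 9 genes rose and 0 fell (6 and 0 at an unadjusted p below 0.05). At the adjusted threshold 8.41% of all genes were called higher and 9.12% lower. The 5 were PCNA (0.21), RPA2 (0.18), RFC3 (0.13), RFC2 (0.12) and RPA1 (0.10). Of those, PCNA alone kept its call in every alternative fit. In cells with drug, PCNA was lower at 40 mM glutamine (−0.14 ± 0.036, adjusted p = 0.00504), a call that ended under scaling by total reads (−0.08, adjusted p = 0.0868).

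Replisome partners, which open and steady the fork, followed the drug as well. Of 15 tested, 13 rose and 0 fell at 2 mM (median 0.41), and 13 rose and 0 fell at 40 mM (median 0.31). The shares of all genes called higher and lower were 17.5% and 17.1% at 2 mM, and 14.1% and 16.2% at 40 mM. At an unadjusted p below 0.05 the counts were 13 and 0 at 2 mM and 14 and 0 at 40 mM, and limma-voom gave 13 and 0 at both. MCM10, which activates the helicase at origins, rose by 0.84 ± 0.055 at 2 mM (adjusted p = 3.39e-14) and 0.47 ± 0.055 at 40 mM (adjusted p = 3.11e-08). CLSPN, a fork protein of the checkpoint, rose by 0.71 and 0.54, and CHTF18, part of an alternative clamp loader, had 0.11 and 0.05 and was not called. A smaller response at 40 mM was called for MCM10 (−0.38 ± 0.078, adjusted p = 0.00572) and GINS2, a subunit of the replicative helicase (−0.28 ± 0.065, adjusted p = 0.0135), the second named after its value had been seen.

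Primer removal partners were divided. With drug at 2 mM 3 of 6 rose and 0 fell, at an unadjusted p below 0.05 and by limma-voom as well. At the adjusted threshold 17.5% of all genes were called higher there and 17.1% lower. EXO1, a nuclease that can resect flaps and mismatched strands, rose by 0.84 ± 0.062 at 2 mM (adjusted p = 7.78e-13) and 0.61 ± 0.062 at 40 mM (adjusted p = 1.87e-09). RNASEH2A, the catalytic subunit of ribonuclease H2, rose by 0.33 and 0.22, while its accessory subunit RNASEH2B had 0.02 and 0.06 and was not called with drug. The third riser at both levels was DNA2, a nuclease for long flaps (0.36 and 0.27), named after its values had been seen.

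Polymerases and ligases of translesion synthesis and repair gave no common direction. Of 13 tested, 1 rose and 2 fell with drug at 2 mM (median −0.03), and 1 rose and 2 fell at 40 mM (median 0.00). Of all genes, 17.5% and 14.1% were called higher at 2 and 40 mM, and 17.1% and 16.2% lower. POLQ, the polymerase of end joining at microhomologies, rose by 0.42 ± 0.057 at 2 mM (adjusted p = 4.31e-07) and 0.50 ± 0.057 at 40 mM (adjusted p = 1.36e-08). LIG3, a ligase of base excision repair and mitochondria, fell by 0.24 on the log2 scale at both levels (adjusted p = 0.000283 and 0.000429). REV3L, the catalytic subunit of polymerase zeta, was the other gene that fell, with −0.15 and −0.17 (named after its values had been seen), and POLB had 0.02 and 0.12 and was not called. In mitochondrial DNA synthesis 3 of 8 genes rose and 1 fell at 2 mM (median 0.00), among them PRIMPOL (0.46, adjusted p = 0.000458) and MGME1 (0.29, adjusted p = 0.00109), while TFAM, which packages mitochondrial DNA, had −0.00 (adjusted p = 0.989). At 40 mM 1 of the 8 rose and 1 fell (median −0.02), with PRIMPOL at 0.14 (adjusted p = 0.329) and MGME1 at 0.21 (adjusted p = 0.0187), the second lost on leaving out replicate 2 at 40 mM with or without drug (adjusted p = 0.131 and 0.1).

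**Figure D4:**
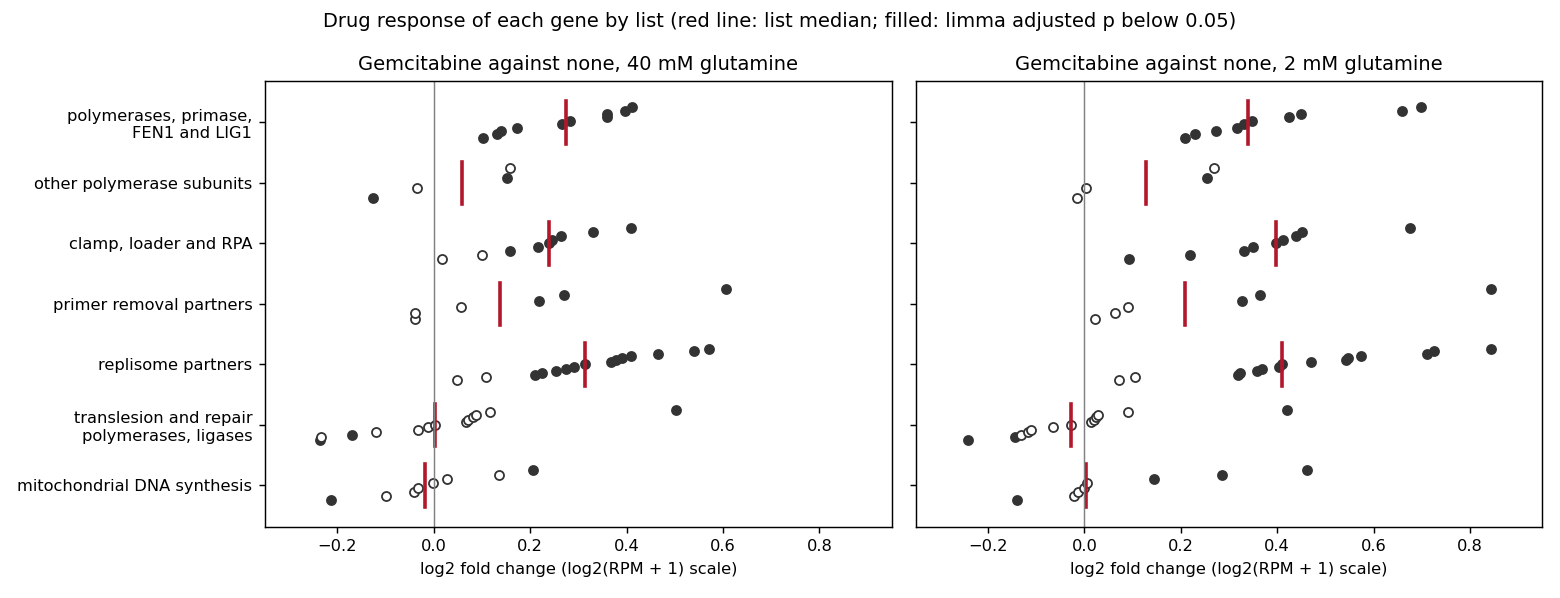
Log2 fold change of every gene with gemcitabine against none at 40 mM (left) and 2 mM glutamine (right), by list, with the list median as a red line and filled points where the limma adjusted p was below 0.05. The medians of the polymerase and primase, clamp and replisome lists lie at 0.27, 0.24 and 0.31 on the left and 0.34, 0.40 and 0.41 on the right, and those of the translesion and mitochondrial lists at or near 0.

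Across the 12 libraries the 10 transcripts varied together. The correlation of each with the mean standardised level of the other 9 lay between 0.785 (PRIM2) and 0.982 (POLA2), as Pearson's r over libraries that share their groups and scaling. The genes most like the mean of the 10 were MCM4 (r = 0.994), RRM2 (0.993), RFWD3 (0.990), CDCA5 (0.989), E2F1 (0.989), MCM3 (0.989), AMD1 (0.988) and MCM10 (0.987). The factor E2F1 averaged 83.3 RPM at 40 mM with drug and 82.2 RPM at 2 mM with drug, against 57.1 RPM at 40 mM without drug and 49.9 RPM at 2 mM without drug. RRM2, a subunit of ribonucleotide reductase, averaged 395 and 402 RPM with drug at 40 and 2 mM, against 281 and 237 RPM without. These correlations describe the libraries and carry no test.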

How the data were processed

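RNA of MIA PaCa-2 cells was sequenced in 12 libraries, 3 for each of 4 groups. The deposited table holds log2 values that the authors made, and its entries are log2(reads per 1000000 + 1) after a scaling between libraries, as read from the values. Whole reads were recovered for 100.0% of values within 0.05 read. Aligner, counter, strand setting, build and scaling method: none is given in the sources used here. Depth was between 21723094 and 32811746 reads in listed genes. Replicates of a group differed by more than sampling noise (chi-square per degree of freedom between 2.38 and 5.64), so none was counted as a duplicate.

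Genes with at least 1 RPM in 3 libraries (12789) were fitted as 4 group means over all 12 libraries with limma 3.58.1 in R 4.3.3 (trended moderation, two-sided, Benjamini-Hochberg over all genes tested, threshold 0.05), and the fit was tested on simulated data. Fold changes are on the log2(RPM + 1) scale, with a pseudocount of 1 RPM. Because whole reads were recovered, limma-voom was run on them as an alternative. Further alternatives changed the filter, pseudocount, scaling, moderation and libraries. The 10 genes and the partner lists were chosen with earlier results of these data known. Partner genes were named by rule, except GINS2, DNA2 and REV3L, which were named after their values had been seen. The rule took all other polymerase subunits, clamp, loader and RPA genes. From each further list it took the 2 of smallest and the 1 of largest p with drug at 2 mM. The 8 most similar genes were ranked by correlation. CHTF8 was not listed and so not tested. Lengths and overlaps came from GENCODE 29, promoters from RefSeq.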

Additional observations from a re-analysis of the deposited data

Results flagged for a closer look

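Differences of the drug response between the glutamine levels, tested as an interaction with limma over all genes, led to 6 results being listed here. The response with 40 mM less the response with 2 mM was −0.29 for POLA2 (adjusted p = 0.0495), −0.30 for FEN1 (adjusted p = 0.0155) and −0.28 for LIG1 (adjusted p = 0.0154). Among the partners it was −0.34 for PCNA (adjusted p = 0.000119), −0.38 for MCM10 (adjusted p = 0.00572) and −0.28 for GINS2 (adjusted p = 0.0135). GINS2 was named after its value had been seen. The 3 partner calls were kept in all 22 alternative fits, with the highest adjusted p at 0.00131 for PCNA, 0.0255 for MCM10 and 0.0492 for GINS2. Those of POLA2, FEN1 and LIG1 were not kept in every fit. Single libraries far from their group were not searched for, since each group holds 3.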

How the results depend on the processing

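Of 1370 alternative fold changes of the 10 genes, 1319 kept their direction and side of the threshold, 30 lost a call, 4 gained one and 17, none of them called, changed sign. Counts of genes higher stayed at 10, 10, 5 and 10 (drug at 2 mM, drug at 40 mM, glutamine alone, both) under every other setting, and ranged 9 to 10, 8 to 10, 4 to 5 and 10 to 10 when a library was left out. The interaction count of 3 lower ranged from 0 to 3 without a library and from 2 to 4 under other settings, and the genes it called (281) from 155 to 366 and from 212 to 331. POLA2 lost its interaction call without the filter (adjusted p = 0.053), with a pseudocount of 4 RPM (0.0557), with total-read scaling (0.107) and with quantile normalization (0.0899).

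Sign changes for glutamine with drug were POLA1 0.0474, POLD1 0.0236, POLE 0.0074 and FEN1 0.0164 with total-read scaling, POLA1 0.0162, POLD1 0.0051 and POLE 0.0148 with quantile normalization, and, without a library, POLA1 (range −0.0214 to 0.0225, also 0.0039) and POLD3 (−0.0225 to 0.0806). For glutamine alone the ranges without a library were −0.0661 to 0.0002 for PRIM1 and −0.0031 to 0.0784 for POLD1, and for the interaction −0.0092 to 0.0796 for POLE2, −0.1168 to 0.009 for PRIM1, −0.0335 to 0.1257 for PRIM2 and −0.0855 to 0.0176 for POLD3. The PRIM1 to PRIM2 difference ranged from −0.0407, without replicate 1 at 40 mM with drug, to 0.106 (leaving out libraries was added for ratios after seeing the data). The cause was not tested.

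Calls that were higher made up 46.6% (drug at 40 mM), 48% (glutamine alone), 39.9% (glutamine with drug), 46.9% (both) and 33.1% (interaction), and with total-read scaling 62.9%, 61.2%, 68.2%, 65.8% and 58.9%. Quantile normalization gave 50.1% for glutamine with drug and 54.7% for the interaction. The median of all genes moved by at most 0.06. Same-numbered replicates did not deviate together (18 correlations between −0.077 and 0.048; 5 of 12 libraries were closest to their own number), and the fit with a replicate block called 306 genes in the interaction and left the counts of the 10 genes as they were. Of 78 partner calls, 60 were kept in every fit, and of the others none changed sign. Of 78 partner results not called, 12 gained a call under at least 1 alternative. Of the 10 genes, counting error limits POLE2 and PRIM1 most. The partner POLE4 had fewer reads, as few as 135 in a library at 2 mM without drug.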
